A study of Mus musculus with 12 samples.

Results

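The genes described here are 33 markers of astrocytes, chosen by symbol, among the 18193 genes that had a probe set annotated with a single symbol on the array. Each gene was followed through 1 probe set, the one with the highest mean over the 12 arrays among those annotated with that symbol alone, and all 33 genes had one. Astrocytes are the glial cells that clear glutamate and potassium from the extracellular space, couple to one another through gap junctions, store glycogen and wrap blood vessels and synapses with their processes. In the prefrontal cortex and the striatum they take up the glutamate released by cortical neurons and their axons, and they express enzymes that handle aldehydes, lipids and metals.

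The tissue came from male Swiss mice, an outbred stock, that were 6 weeks old when drinking began and 22 weeks old at the end. All had free access to 3 bottles with water, 5% ethanol and 10% ethanol. The schedule ran for 16 weeks. Mice first had 10 weeks of free choice, then lost the ethanol bottles for 2 weeks and regained them for 2, and for the last 2 weeks both ethanol solutions held 0.005 g/L of bitter quinine. A further week of the plain free choice followed. Inflexible drinkers preferred ethanol at every stage, also with quinine, and had an average blood ethanol of 113 ± 11.3 mg/dL per the labels. Light drinkers drank more water than ethanol and had 48 ± 13.3 mg/dL; the kind of error is not stated. Light drinkers had also been offered ethanol, so they are not an ethanol-naive control. Each class was sampled in the prefrontal cortex (PFC) and in the whole striatum, with 3 arrays per group and 12 in all. The labels give 1 RNA pool concentration per group, so the 3 arrays of a group may be hybridisations of 1 pool. Every p-value below then covers the spread between arrays and not the spread between mice.

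The arrays differed in a way that no group explains. The mean of 18 probe sets for spiked hybridisation controls, which are added to each sample and report the hybridisation and not the tissue, lay between 6.47 and 7.06 (log2) on 7 arrays and between 8.36 and 9.30 on the other 5. The high-control arrays were number 2 of both PFC groups, numbers 1 and 3 of the striatal inflexible group and number 1 of the striatal light group. The labels give no batch that matches it, and where the split came from is unknown. The mean of the 18S ribosomal RNA probe sets was 8.54 to 9.02 on the low-control arrays and 5.57 to 7.63 on the high-control arrays. The split crossed the groups, so each comparison was also fitted with it as a block and within each kind of array, and counts or values from these fits stand beside the main results. Both PFC groups and the striatal light group hold 1 high-control array each. A difference within the high-control arrays therefore sets 1 array against 1 in PFC, and its p-value takes the spread from all 12 arrays and assumes that the lone array varies like the others.

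Of the 33 markers, 32 had a mean above a log2 value of 4 over the 12 arrays, against array medians of 3.12 to 3.14 over all probe sets. The exception was Sox9, the transcription factor that specifies glial fate, whose mean was 3.75. Array values of the markers averaged over all 33 genes stayed between 6.44 and 6.71 on every array. Gfap, the intermediate filament that gives astrocytes their classical stain, had a mean of 4.10 but lay at 3.18 to 3.66 on the 7 low-control arrays, close to the array median. For the labelled regions, all 13 measured markers of medium spiny neurons were higher in striatum than in PFC in both drinking classes.

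In the PFC, 1 of the 33 astrocyte markers differed between drinking classes. Fabp7, the brain-type fatty acid binding protein found in radial glia and in a subset of adult astrocytes, was 1.75-fold lower in inflexible than in light drinkers. Its values were 6.33, 6.35 and 6.36 in PFC of light drinkers and 5.51, 5.61 and 5.51 in PFC of inflexible drinkers. The groups did not overlap, and the gap between them was far larger than the spread within either. The difference was -0.81 ± 0.10 (log2, SE), with an adjusted p of 0.00509 by limma with Benjamini-Hochberg adjustment over all 45037 probe sets. Over all genes, 1.04% passed the same threshold in this comparison in either direction and 0.462% passed it as lower. Low-control arrays alone gave a difference of -0.84 (limma, adjusted p = 0.00635). The single high-control arrays of the PFC groups differed by -0.74. In such bulk tissue, fewer cells that express a gene and less RNA per cell cannot be told apart.

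The same samples of light drinkers also differed from those of inflexible drinkers in markers of other cells. Cdhr1, a cadherin of olfactory bulb output neurons, had a mean of 4.51 in PFC of light drinkers and 3.40 in PFC of inflexible drinkers, and it fell by 1.11 on the log2 scale (limma, adjusted p = 0.00616). Dlx1, a transcription factor of inhibitory neuron precursors, fell by 0.35 (adjusted p = 0.00583). These were the 2 of 10 genes of the neural progenitor, neuroblast and olfactory bulb list that passed; 9 of the 10 had a mean not above 4, and the list's mean level was 3.84 to 3.85 in light drinkers against 3.55 to 3.66 in inflexible drinkers. In the opposite direction, 7 of 13 markers of medium spiny neurons and 6 of 11 myelin and oligodendrocyte genes were higher in PFC of inflexible drinkers, with median differences of 0.90 and 0.99 over the lists. With the split as a block these counts were 8 of 13 and 10 of 11. The medium spiny neuron list had a mean level of 5.12 to 5.20 in inflexible drinkers and 4.19 to 4.30 in light drinkers, and the myelin list 5.65 to 5.78 against 4.65 to 4.85. Ttr, the transthyretin made in bulk by choroid plexus, was 10.78 against 4.53, while the other 8 choroid plexus and ependyma genes, none with a mean above 4, did not pass without the block. Fmod, a meningeal matrix protein, fell by 0.89 and was the 1 of 8 meningeal genes that passed. Ctss and Olfml3, the 2 of 10 microglial genes that passed, fell by 0.36 and 0.31. Olfml3 was dim, with means of 3.07 in inflexible and 3.38 in light drinkers. The medians over the meningeal and microglial lists were -0.13 and -0.15. With the split as a block, where 3.19% of all genes passed, Clic6 of the choroid plexus list also passed (0.49, limma, adjusted p = 0.0312). So did Dcx of the neuroblast list (-0.26, 0.00874) and Col1a2 of the meningeal list (-0.49, 0.02). The part of these cells in the Fabp7 result was not tested.

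The 250 bases before the annotated start of Fabp7 are shown because it is the astrocyte marker that passed in the class comparison; they lie at chr10:57784673-57784922 on the plus strand of GRCm38.p6 (RefSeq). Capitals mark the core of the site of RBPJ, the DNA-binding partner of Notch, searched as TGGGAA on both strands.
Fabp7: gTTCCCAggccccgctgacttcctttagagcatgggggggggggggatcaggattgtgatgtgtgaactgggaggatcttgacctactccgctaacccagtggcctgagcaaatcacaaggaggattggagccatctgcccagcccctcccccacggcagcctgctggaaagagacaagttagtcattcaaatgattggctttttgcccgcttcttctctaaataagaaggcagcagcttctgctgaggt
The window holds 1 such match, on the minus strand. Of 32851 promoter windows of the same length in the table, 21.6% hold at least 1, so such a match is common. Windows were found for 28 of the 33 markers.

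**Figure D1:**
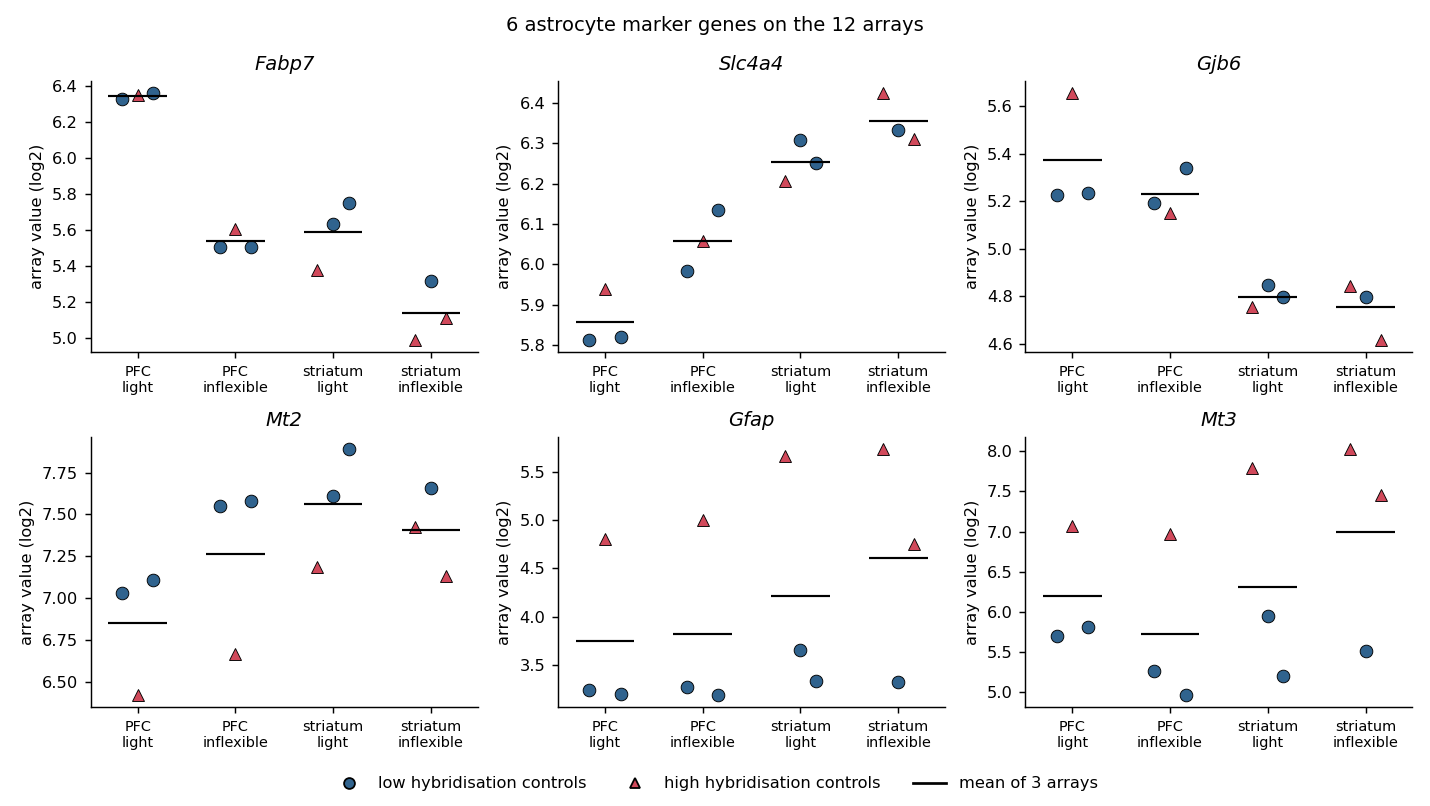
Array values (log2, vertical axes) of 6 astrocyte markers in the 4 groups of 3 arrays; circles are low-control arrays, triangles high-control arrays and lines the mean of 3 arrays. Fabp7 separates PFC of light drinkers (6.33 to 6.36) from the other groups, while Gfap and Mt3 separate by control level in each group.

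The remaining 32 markers did not pass in the PFC. Their median, taken with Fabp7, was -0.03 (log2), against 0.0018 over all genes, with 13 differences above 0 and 20 below. Of the 33, 6 had groups that did not overlap (18.2%), against 14.1% of all genes. The confidence interval lay within a 2-fold change for 27 markers and reached past it for 6. With the control split as a block, Fabp7 was again the only marker to pass (difference -0.81, adjusted p = 0.00205), against 3.19% of all genes.

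Among the transporters of glutamate, Slc1a3, which encodes GLAST, read 7.43, 7.22 and 7.31 in PFC of light drinkers and 7.00, 6.80 and 6.83 in inflexible drinkers. The groups did not overlap. The difference of -0.45 ± 0.11 did not pass (limma, adjusted p = 0.157, and 0.0738 with the split as a block). It passed with array weights (0.0102) and with a filter on low values and the block (0.0196). Other Slc1a3 probe sets with a mean above 4 gave -0.25, -0.16 and 0.05, and none passed in the main fit or with the block. Slc1a2, which encodes GLT-1, the main glutamate transporter of the adult forebrain, had the opposite sign, 0.38 ± 0.21 (limma, adjusted p = 0.843), and its groups overlapped. On the 4 low-control PFC arrays alone Slc1a2 read 9.61 and 9.65 in inflexible and 9.23 and 9.29 in light drinkers, and the difference of 0.37 passed there (limma, adjusted p = 0.0222). Glul, the glutamine synthetase that turns glutamate into glutamine, and Slc7a10, an exchanger of small neutral amino acids such as serine, differed by -0.10 and 0.09.

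Slc4a4, the sodium bicarbonate cotransporter, read 5.81, 5.94 and 5.82 in PFC of light drinkers and 5.98, 6.06 and 6.13 in inflexible drinkers. The groups were apart by a narrow margin, and the difference of 0.20 ± 0.05 did not pass (limma, adjusted p = 0.169, and 0.00417 with array weights). Atp1b2, a subunit of the sodium pump, read 5.84, 6.77 and 6.12 in light drinkers and 5.46, 6.48 and 5.54 in inflexible drinkers. In each group the highest value was that of the high-control array, and the difference of -0.42 ± 0.41 did not pass (limma, adjusted p = 0.986). Ttyh1, a membrane protein linked to volume-regulated anion flux, differed by -0.22 ± 0.09, the water channel Aqp4 by 0.09 ± 0.26 and Mlc1, a membrane protein of astrocyte end-feet, by 0.07 ± 0.16.

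On the probe sets used, secreted and matrix proteins of astrocytes had PFC differences from -0.20 to -0.003, and none passed. Sparcl1, which promotes synapse formation, had 9.40, 9.32 and 9.39 in light drinkers against 9.19, 9.22 and 9.09 in inflexible drinkers (-0.20 ± 0.07). Bcan, the core protein of brevican in the extracellular matrix, had 6.49, 6.44 and 6.52 against 6.24, 6.29 and 6.34 (-0.19 ± 0.09). Both pairs of groups were apart, yet the adjusted p-values by limma were 0.421 and 0.677. With array weights both passed (adjusted p = 0.00943 and 0.0371). Clu, the chaperone clusterin, differed by -0.20, and Htra1, a serine protease, and Cst3, a cysteine protease inhibitor, by -0.0075 and -0.003. Another Htra1 probe set, with a mean of 5.94, gave 0.13 and did not pass.

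The metallothioneins, small proteins that bind zinc and copper, were split in direction. Mt1 and Mt2, which occur in many tissues, differed by 0.37 ± 0.16 and 0.41 ± 0.29 between inflexible and light drinkers in the PFC, and Mt3, the brain form, by -0.47 ± 0.85. None passed. The interval of Mt3 ran from -2.38 to 1.45, the widest of the 33 in this comparison. Mt3 read 5.70, 7.07 and 5.82 in light drinkers and 5.26, 6.97 and 4.96 in inflexible drinkers, and the highest value of each group was again that of its high-control array.

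None of the remaining markers passed in the PFC. Gfap and the calcium-binding protein S100b differed by 0.07 ± 0.83 and 0.03 ± 0.26. Gpr37l1, an orphan receptor of astrocytes, was apart in the PFC with a difference of -0.22 ± 0.12, and Ntsr2, a neurotensin receptor, overlapped with 0.33 ± 0.18. The growth factor receptor Fgfr3 (-0.05), Ndrg2 (-0.03) and Sox9 (-0.09) stayed within their errors. The gap junction proteins Gja1 and Gjb6 differed by -0.02 and -0.14, and the tight junction protein Cldn10 by 0.13. Among metabolic genes, Aldh1l1, a folate enzyme used as a general astrocyte marker, differed by -0.09, the acyl-CoA synthetase Acsbg1 by 0.04, the glycolytic enzyme Aldoc by -0.06 and the glycogen-targeting phosphatase subunit Ppp1r3c by 0.0004. Aldh1l1 gave -0.24 on the low-control arrays (limma, adjusted p = 0.0233) and the opposite sign, 0.21, between the single high-control array of each PFC group. Apoe, the main lipid carrier secreted by astrocytes, differed by -0.21 ± 0.37.

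In the striatum none of the 33 markers differed between classes (limma, smallest adjusted p = 0.471, 2 markers at an unadjusted p under 0.05). Over all genes 0.022% passed, or 0.11% with the split as a block, where again 0 markers passed. The median over the markers was 0.03 (0.10 with the block). Fabp7 read 5.38, 5.63 and 5.75 in light drinkers and 4.99, 5.32 and 5.11 in inflexible drinkers. The groups did not overlap, and the difference of -0.45 ± 0.10 had the same sign as in the PFC. Ttyh1 read 6.09, 6.28 and 6.08 against 6.50, 6.47 and 6.31, a difference of 0.27 ± 0.09. Slc4a4 was the other marker whose striatal groups were apart, with 6.21, 6.31 and 6.25 against 6.42, 6.33 and 6.31 (0.10 ± 0.05). These 3 markers were 9.09% of the 33, against 7.53% of all genes.

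Without the block, the 4 largest striatal differences were that of Fabp7 and those of Mt3, Gfap and Atp1b2, whose values followed the control split. Mt3 read 7.79, 5.94 and 5.21 in light drinkers and 8.03, 5.51 and 7.46 in inflexible drinkers, a difference of 0.69 ± 0.85 that was 0.05 ± 0.26 with the split as a block. Gfap read 5.67, 3.66 and 3.33 against 5.74, 3.32 and 4.76, a difference of 0.39 ± 0.83 that became -0.23 ± 0.23 with the block. Atp1b2 read 6.46, 6.19 and 5.63 against 7.03, 5.65 and 6.56, and its difference of 0.32 ± 0.41 was 0.03 ± 0.19 with the block. The inflexible striatal group had 2 high-control arrays and the light group 1. None of these 3 markers passed with or without the block. With the block the largest striatal difference was that of Slc1a2, 0.45 ± 0.09, against 0.30 ± 0.21 without it. It had the same sign as in the PFC and did not pass (limma, adjusted p = 0.162 with the block).

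**Figure D2:**
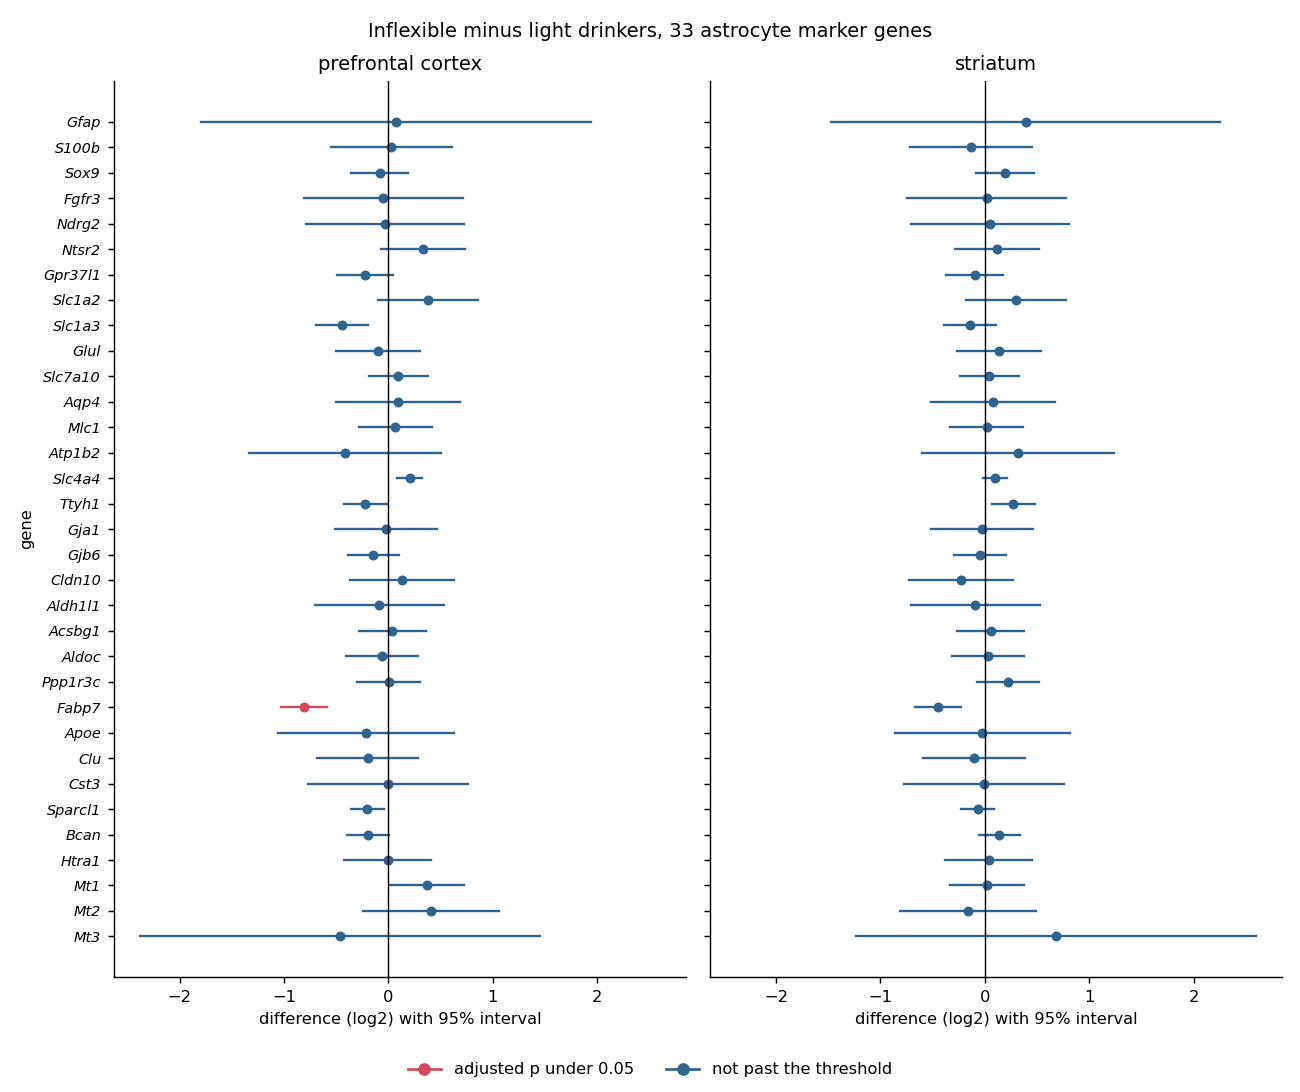
Difference between inflexible and light drinkers (log2, horizontal axis, point) with its confidence interval (line) for the 33 markers in PFC and striatum; red marks an adjusted p under 0.05. Fabp7 in PFC (-0.81) is the only marker past the threshold, and the widest intervals are those of Mt3 and Gfap.

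The interaction term, which tests whether the class difference itself differs between regions, passed for 0 of 33 markers (limma, smallest adjusted p = 0.291, 3 markers at an unadjusted p under 0.05), against 0.44% of all genes, or 1.33% with the split as a block, where the markers again gave 0. Ttyh1 had the smallest p-value, with a striatal minus PFC class difference of 0.49 ± 0.13 (limma, adjusted p = 0.291). With the block its difference was 0.53 ± 0.11 (limma, adjusted p = 0.0714). For Fabp7 the term was 0.36 ± 0.14 without the block (limma, adjusted p = 0.736). The lower Fabp7 of inflexible drinkers is thus not shown to differ between PFC and striatum.

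The astrocyte markers varied with the level of the hybridisation controls more than with drinking. With group and split in 1 fit, a comparison added after the arrays were seen, 24 of the 33 markers (72.7%) differed between high-control and low-control arrays: 6 were higher and 18 lower. Over all genes 33.5% differed, 11.5% higher and 22.0% lower. Among probe sets with a mean above 4, as 32 of the markers have, 56.2% differed. The median over the markers was -0.29 (log2), against 0.01 over all genes. Of the 33 markers, 25 had the same sign in all 4 groups, against 48.0% of all genes. In 11 markers every high-control array lay above or every one lay below all low-control arrays, against 13.6% of all genes. In 24 markers the size of the split term was larger than the class difference in PFC.

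Mt3 and Gfap rose most on high-control arrays. Mt3 was 4.96 to 5.94 on the 7 low-control arrays and 6.97 to 8.03 on the 5 high-control arrays, a difference of 1.90 ± 0.19 (limma, adjusted p = 0.000282). Gfap was 3.18 to 3.66 and 4.76 to 5.74, a difference of 1.87 ± 0.17 (adjusted p = 0.000202). Atp1b2 rose by 0.86, Aqp4 by 0.54, Gja1 by 0.41 and Sox9 by 0.22. The Gfap difference was 1.79 and 1.59 in PFC and 1.93 and 2.17 in striatum (inflexible, then light drinkers). The spread of Gfap within groups was 1.12 (SD) and, within groups and kind of array, 0.37.

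The 18 markers that were lower on high-control arrays came from all 9 roles. Apoe fell by 0.77, Fgfr3 by 0.77, Cst3 by 0.76, Ndrg2 by 0.73 and Mt2 by 0.62. S100b fell by 0.59 and did not overlap, with 6.26 to 6.44 on low-control and 5.70 to 5.93 on high-control arrays. All 4 metabolic markers fell, Aldh1l1 by 0.57, Aldoc by 0.32, Acsbg1 by 0.29 and Ppp1r3c by 0.23. Cldn10, Slc1a2, Clu, Htra1, Ntsr2, Glul, Mlc1 and Mt1 fell by 0.48, 0.46, 0.46, 0.40, 0.35, 0.34, 0.34 and 0.29. The 9 markers that did not pass were Fabp7, Slc1a3, Slc4a4, Ttyh1, Sparcl1, Gjb6, Bcan, Gpr37l1 and Slc7a10, with split terms from -0.14 to 0.11. All 6 markers that passed in any class or region comparison without the block are among these 9. In that fit the split adds to the spread, so a marker that follows it could hardly pass. With the block, Mt1, Mt2, Ntsr2 and Glul, which follow the split, passed by region in light drinkers.

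Probe sets of 1 gene could move apart with the split. Of 12 markers with at least 2 probe sets above a mean of 4, the probe sets had the same sign in 7. Of these 12 markers 8 passed, and all 7 with the same sign were among the 8. The exception among those that passed was Aqp4. The probe set used for Aqp4 rose by 0.54, while a dimmer one with a mean of 4.49 fell by 0.86, and both passed. For Gfap, which is not among the 12, another probe set, with a mean of 3.96, rose by 1.64. A further Gfap probe set with a mean of 3.94 gave -0.12 (limma, adjusted p = 0.258). Whether the split reflects the RNA, the labelling or the hybridisation was not tested.

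**Figure D3:**
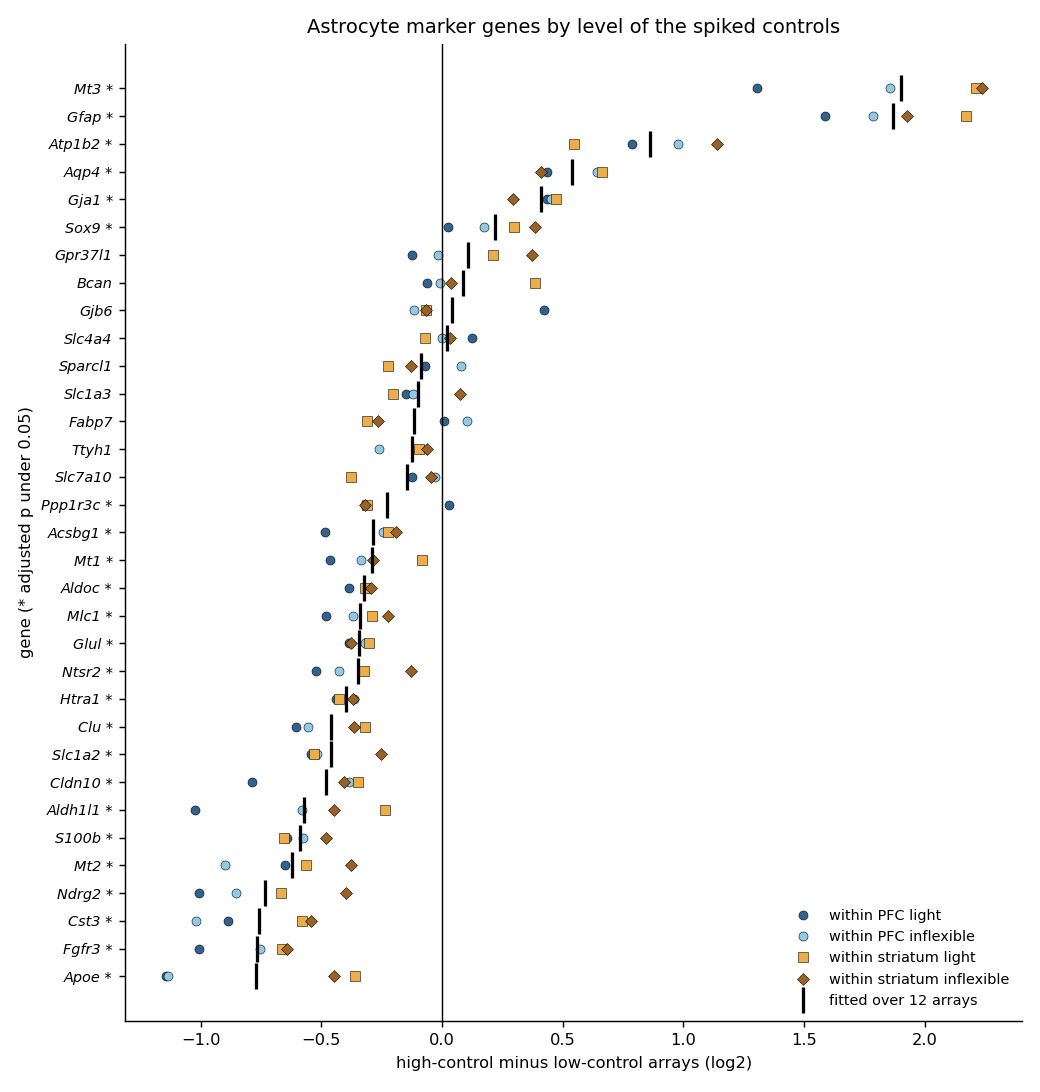
High-control minus low-control arrays (log2, horizontal axis) for the 33 markers, ordered by the term fitted over 12 arrays (black ticks), with the same difference within each of the 4 groups (coloured symbols); asterisks mark an adjusted p under 0.05. Mt3 and Gfap lie furthest to the right at 1.90 and 1.87, and 18 marked genes lie to the left of 0.

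In light drinkers 6 of the 33 markers (18.2%) differed between striatum and PFC, 1 higher and 5 lower in striatum, against 4.68% of all genes (2.18% higher and 2.5% lower) and 9.93% of the probe sets with a mean above 4. Their values in the 6 arrays did not overlap, as was true of 9 markers (27.3%) and 19.0% of all genes. The PFC arrays of light drinkers entered here as well as in the PFC class comparison, so a low or high value on them moves both. With the split as a block 10 markers (30.3%) passed, 4 higher and 6 lower, against 9.85% of all genes (4.66% higher and 5.19% lower). The low-control arrays alone gave 9 markers, a count given without the share of all genes in that fit.

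Slc4a4 was higher in striatum of light drinkers, with 6.21, 6.31 and 6.25 against 5.81, 5.94 and 5.82 in PFC. Of 3 other bright probe sets of the gene, with 0.38, 0.50 and 0.87, only the last passed (limma, adjusted p = 0.00241). For the probe set used, the difference was 0.40 ± 0.05 (limma, adjusted p = 0.00209), or 1.32-fold. The call was lost with an intensity trend in the variance (adjusted p = 0.117) and between the single high-control arrays (0.27, adjusted p = 0.119). In inflexible drinkers it was the only marker to pass, with 6.42, 6.33 and 6.31 against 5.98, 6.06 and 6.13. That difference was 0.30 ± 0.05 (limma, adjusted p = 0.0338), against 1.2% of all genes, or 3.2% with the split as a block, where Slc4a4 was again the single marker. Leaving out any 1 of the 6 arrays raised its adjusted p in inflexible drinkers to between 0.0511 and 0.13.

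Fabp7 was 1.69-fold lower in striatum than in PFC of light drinkers, a difference of -0.76 ± 0.10 (limma, adjusted p = 0.00207). In inflexible drinkers it was -0.40 ± 0.10 and did not pass (adjusted p = 0.155), although the 2 groups were apart. Gjb6, a connexin of astrocyte gap junctions, read 4.75, 4.84 and 4.80 in striatum of light drinkers and 5.23, 5.65 and 5.23 in PFC, a difference of -0.57 ± 0.11 (limma, adjusted p = 0.0207). In inflexible drinkers it read 4.84, 4.80 and 4.62 against 5.19, 5.15 and 5.34, and the difference of -0.48 ± 0.11 did not pass (adjusted p = 0.126). Both regional differences exceeded the range within any of the 4 groups. In light drinkers the call on Gjb6 was lost without any 1 of the striatal arrays (adjusted p up to 0.0724).

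Slc1a3 was lower in striatum of light drinkers, with 6.70, 7.04 and 6.77 against 7.43, 7.22 and 7.31 in PFC. The difference of -0.49 ± 0.11 passed narrowly (limma, adjusted p = 0.0473). Its other probe sets with a mean above 4 gave -0.31, -0.30 and -0.35, and none passed. The mean of its probe sets gave -0.26 (limma, adjusted p = 0.131). The call was lost when any array of the comparison but striatal number 2 was left out, with adjusted p-values up to 0.178. Ttyh1 gave -0.44 ± 0.09 (limma, adjusted p = 0.0297). Its other 2 bright probe sets had the same sign, and neither passed. Sparcl1 gave -0.36 ± 0.07 (limma, adjusted p = 0.022), with 8.86, 9.15 and 9.02 in striatum. The Ttyh1 call was lost in the same 5 cases (up to 0.122), and that of Sparcl1 without PFC number 1 or 3 or striatal number 3 (up to 0.0912). In inflexible drinkers these 3 markers gave -0.18, 0.05 and -0.22, and none passed. Striatal values of inflexible drinkers were 6.90, 6.65 and 6.55 for Slc1a3, and 8.91, 9.03 and 8.88 for Sparcl1. In inflexible drinkers the 2 regions were apart for 5 markers (15.2%), against 12.6% of all genes.

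The regional comparison went with large differences in other cells. All 13 medium spiny neuron genes and all 11 myelin and oligodendrocyte genes were higher in striatum of light drinkers, with median differences of 2.12 and 1.34, and 5 of 9 choroid plexus and ependyma genes passed as higher. Mean levels of the myelin list were 6.14 to 6.34 in striatum and 4.65 to 4.85 in PFC of light drinkers. Microglial and endothelial lists differed little, with medians of -0.18 and -0.13 and 1 and 0 genes past the threshold. The part of these cells in the astrocyte values was not tested.

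With the split as a block, Mt1, Mt2, Ntsr2 and Glul joined the markers that differed by region in light drinkers. Mt1 read 8.60, 8.57 and 8.80 in striatum and 8.18, 7.73 and 8.21 in PFC of light drinkers, a difference of 0.62 ± 0.16 without the block (limma, adjusted p = 0.0817) and ± 0.10 with it (adjusted p = 0.00635). Mt2 read 7.19, 7.61 and 7.89 against 7.03, 6.42 and 7.11, a difference of 0.71 ± 0.29 (limma, adjusted p = 0.362, and 0.00642 with the block). On both genes the lowest PFC value was that of the high-control array. Mt3 gave 0.12 ± 0.85, or ± 0.25 with the block. Ntsr2 was 0.49 higher and Glul 0.47 lower in striatum (adjusted p = 0.0193 and 0.028 with the block).

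The 3 metallothionein genes lie in 1 cluster on chromosome 8. The 250 bases before each start are shown as background, and no difference between arrays or groups was tested against them. The windows are chr8:94178839-94179088 (Mt1), chr8:94172368-94172617 (Mt2) and chr8:94152357-94152606 (Mt3), all on the plus strand of GRCm38.p6 (RefSeq). Capitals mark the core of the metal response element, the site of the zinc-sensing factor Mtf1, searched as TGCACNC and TGCGCNC on both strands.
Mt1: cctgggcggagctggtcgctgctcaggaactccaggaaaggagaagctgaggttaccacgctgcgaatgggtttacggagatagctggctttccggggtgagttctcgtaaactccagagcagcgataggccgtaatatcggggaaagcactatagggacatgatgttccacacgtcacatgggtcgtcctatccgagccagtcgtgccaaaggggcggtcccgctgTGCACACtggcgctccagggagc
Mt2: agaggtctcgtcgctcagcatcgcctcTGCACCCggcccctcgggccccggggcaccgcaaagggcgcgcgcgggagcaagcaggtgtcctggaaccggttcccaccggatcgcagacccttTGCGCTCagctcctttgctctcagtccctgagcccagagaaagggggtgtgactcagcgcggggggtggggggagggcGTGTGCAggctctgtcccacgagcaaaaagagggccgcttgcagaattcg
Mt3: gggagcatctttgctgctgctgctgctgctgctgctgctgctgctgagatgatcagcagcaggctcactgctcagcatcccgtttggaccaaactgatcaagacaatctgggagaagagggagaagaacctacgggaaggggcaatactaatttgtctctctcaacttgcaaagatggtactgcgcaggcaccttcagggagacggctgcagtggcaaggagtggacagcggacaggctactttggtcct
The Mt1 window holds 1 match, the Mt2 window 3 and the Mt3 window none of these letters. Only these 250 bases before each annotated start were searched, so the counts leave out any site elsewhere and do not rank the genes. At least 1 match occurs in 21.4% of the 32851 windows and 3 or more in 1.26%. A match describes the sequence and is no evidence that a factor binds there.

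**Figure D4:**
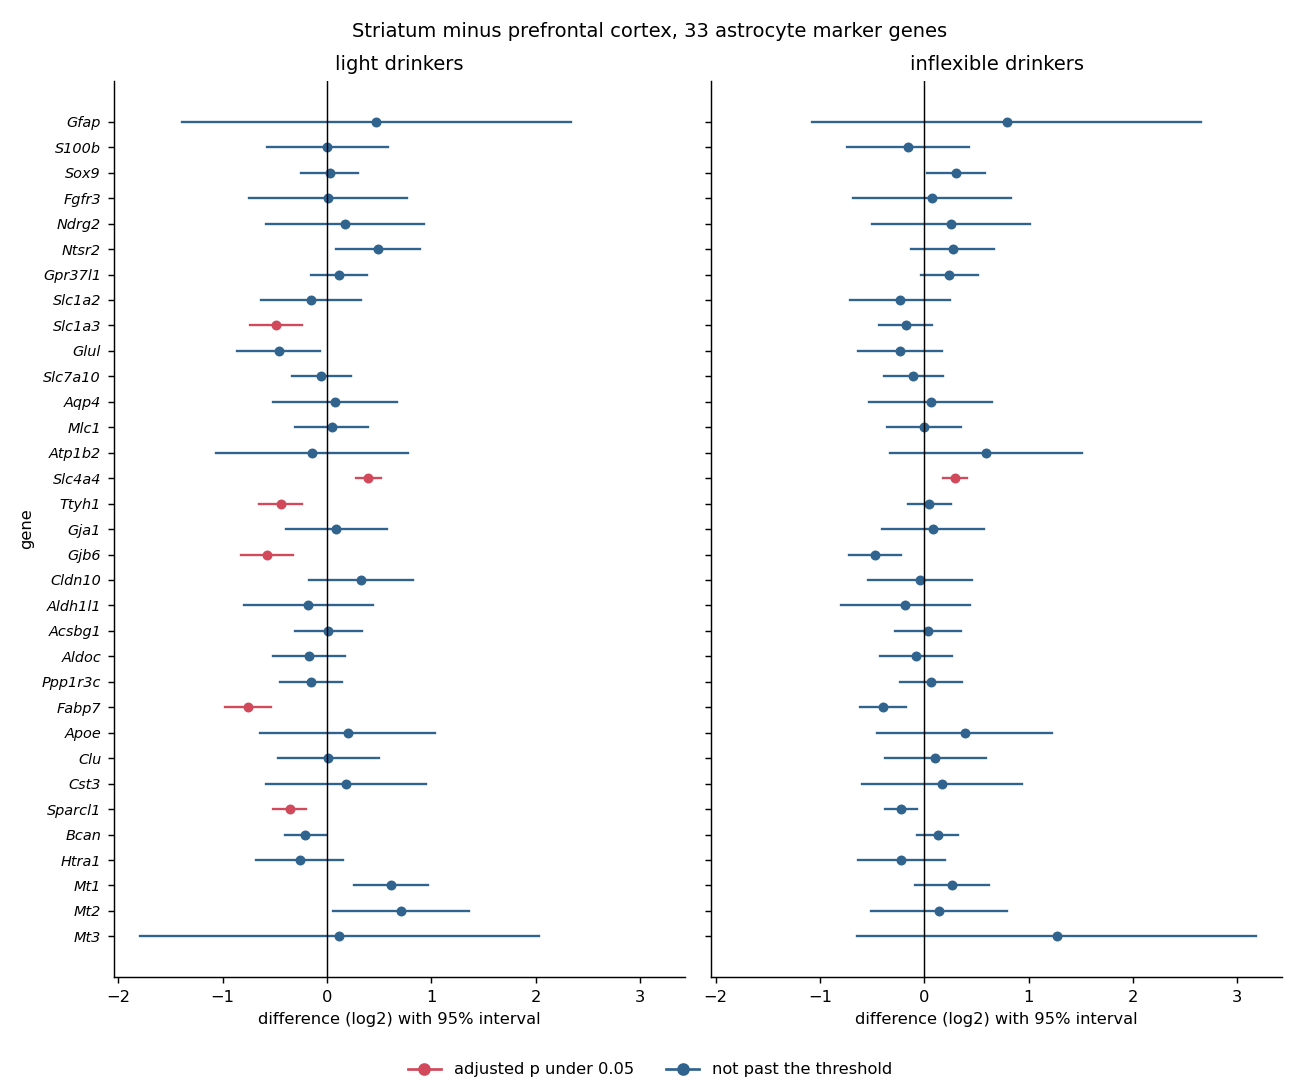
Difference between striatum and PFC (log2, horizontal axis, point) with its confidence interval (line) for the 33 markers, in light and in inflexible drinkers; red marks an adjusted p under 0.05. In light drinkers 6 markers pass, from Fabp7 at -0.76 to Slc4a4 at 0.40, and in inflexible drinkers Slc4a4 alone at 0.30.

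Other genes of astrocyte pathways were read beside the markers. Of 27 measured genes that mark reactive astrocytes, 0 passed between classes in either region, 21 had a mean not above 4, and the median PFC difference was -0.03. H2-D1, a major histocompatibility gene that reactive astrocytes raise, had the largest difference among the named genes of that list, with 4.60 ± 0.39 (SD, n = 3) in PFC of light drinkers and 3.81 ± 0.08 in inflexible drinkers, -0.79 (limma, adjusted p = 0.0884, and 0.0042 with the split as a block). S1pr3, a lipid receptor, gave -0.31 (adjusted p = 0.0765), Osmr, a cytokine receptor, -0.17 (0.127) and Nfia, a gliogenic factor, 0.07 (0.962). With the block 2 genes of the list were higher and 3 lower.

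Of 68 other astrocyte-enriched genes, 1 was higher and 1 lower in PFC of inflexible drinkers. Gpc4, a heparan sulphate proteoglycan by which astrocytes promote synapses, was 3.73 against 3.47 (0.27, limma, adjusted p = 0.0325). Chrdl1, a secreted antagonist of bone morphogenetic proteins, was 3.42 against 3.98 (-0.56, adjusted p = 0.0434). Neither had a group mean above 4. Slc25a18, a mitochondrial glutamate carrier, gave -0.48 and Id4, a transcriptional inhibitor, 0.53 (adjusted p = 0.0907 and 0.102). With the split as a block both passed (adjusted p = 0.0348 and 0.0338), and the list held 3 higher and 5 lower genes.

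Among 25 genes of glycogen, lactate and lipid handling, 1 passed in the PFC. Lpl, a lipase that frees fatty acids from lipoproteins and is not particular to astrocytes, was 6.37 ± 0.02 (SD, n = 3) in inflexible and 4.95 ± 0.20 in light drinkers, 1.42 higher (limma, adjusted p = 0.000836). In striatum it read 6.98 and 6.91. Scd1, a desaturase, gave 0.31 in the PFC, Pdk4, a kinase that inhibits pyruvate dehydrogenase, -0.19 and Pygb, a glycogen phosphorylase, -0.28, and none of these passed.

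Of 19 partners of the glutamate and glutamine cycle, 0 passed between classes. Slc38a1 and Slc38a2, neuronal glutamine transporters, gave -0.16 and -0.33 in the PFC, Slc38a3, the glutamine exporter of astrocytes, -0.29 and Slc1a1, the neuronal glutamate transporter, 0.31. Of 19 metal handling genes, 1 passed in the PFC: Slc39a10, a zinc importer, was 7.43 against 7.97 (-0.54, limma, adjusted p = 0.0496). Slc30a3, which loads zinc into synaptic vesicles of cortical neurons, gave -0.55, Nfe2l2, the oxidative stress regulator, -0.21, and Tfrc, the transferrin receptor, 0.15. In striatum Tfrc gave -0.32 and did not pass. With the split as a block it gave -0.43 there and passed (limma, adjusted p = 0.0445), against 0.11% of all genes. The interaction with the block was -0.57 for Tfrc (limma, adjusted p = 0.01) and 0.72 for Slc39a10 (0.0263), against 1.33% of all genes.

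**Figure D5:**
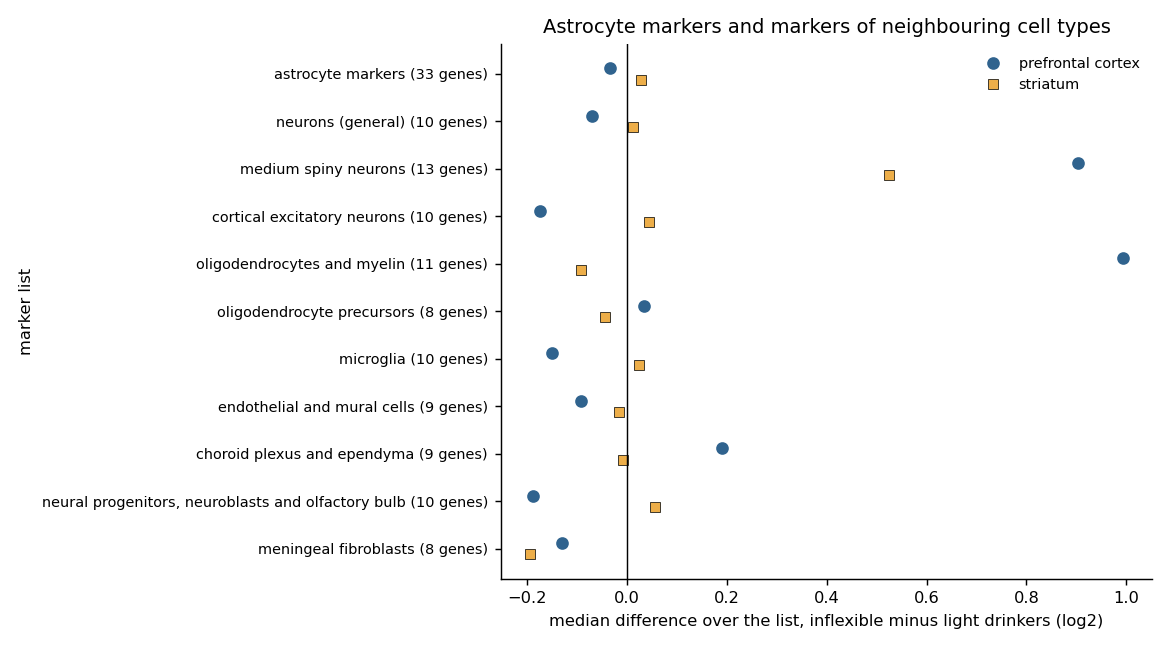
Median difference between inflexible and light drinkers (log2, horizontal axis) over each marker list (vertical axis), in PFC (circles) and striatum (squares). The astrocyte markers lie at -0.03 and 0.03, while medium spiny neuron and myelin lists lie at 0.90 and 0.99 in PFC.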

How the data were processed

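RNA was extracted with TRIzol and carried a biotin label, per the labels, on 1-colour oligonucleotide arrays. The authors deposited 1 table of probe set values, taken here as log2 values. RMA (background correction, normalisation and probe summary) and affy were used per the submitters' processing notes. Values ran from 2.76 to 12.17; no source here states the log base, so folds assume base 2. Summaries of this kind compress low values, which understates the change of dim genes, and the number of arrays limits the precision. Of 45101 probe sets, 64 controls were left out.

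Group means of all 12 arrays were fitted with limma 3.58.1 in R 4.3.3 (8 residual degrees of freedom), with contrasts between classes within a region, between regions within a class and their interaction. Tests were two-sided, with Benjamini-Hochberg adjustment over 45037 probe sets and calls at an adjusted p under 0.05; the fit was tested on simulated data. Shares of all genes count 1 probe set for each of 18193 genes. Platform annotation gave 1 symbol for 34945 probe sets, several for 932 and none for 9160. The control split was set at the largest gap between arrays, 1.29, in their mean hybridisation control.

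Named genes were markers called in any comparison, the 4 largest class differences in each region and, from each other list, the 4 with the smallest p-value between classes. Ntsr2, Glul, Mt1 and Mt2 were added as called with the split as a block. The markers and lists were chosen with earlier results of these data known. Same-numbered arrays of the 2 PFC groups deviated together (correlations over genes of 0.586 to 0.798), where both number 2 arrays are high-control. Low-control PFC arrays numbered 1 and 3 did so as well (0.717 and 0.597), so the numbers show no pairing in PFC. In the other comparisons at least 1 same-numbered pair was negative, each time between a high-control and a low-control array. These signs went with the control split, so they cannot decide whether the numbers pair arrays there.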

Additional observations from a re-analysis of the deposited data

How the results depend on the processing

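The count of 0 markers in striatum held under every alternative run. In the PFC, Fabp7 passed in every alternative and alone when any 1 array was left out (1 marker each time); the count was 3 on low-control arrays, 3 within high-control arrays, 5 with array weights and 5 with a filter on low values and the split as a block. The interaction gave 1 marker in place of 0 within high-control arrays (Cldn10), with array weights (Bcan) and with filter and split block (Ttyh1), and 0 to 1 with 1 array left out (Bcan, without number 1 of the light striatal group). In light drinkers the regional count of 6 became 10 with the split as a block, 10 with quantile normalisation and that block, 12 with filter and block, 10 with array weights, 3 with the arrays of the comparison only, 2 with an intensity trend, and 2 to 5 with 1 array left out. In inflexible drinkers the count of 1 became 0 on low-control arrays, with the arrays of the comparison only, with quantile normalisation, with the filter, with an intensity trend and without any 1 array (0 to 0), and 4 within high-control arrays, 3 with array weights and 9 with filter and block. With the replicate block the counts were 1 in PFC, 0 in striatum, 4 and 0 for the regions (light, inflexible) and 0 for the interaction. The split count was 21 to 24 with 1 array left out. Aldh1l1 reversed within high-control arrays, to 0.21 between PFC classes and 0.34 between regions of light drinkers, each 1 array against 1. The share of all genes moved with the setting too. For regions in light drinkers it was 4.68% in the main fit and 9.85% with the split as a block. The marker counts of this section are given without such a share and are not read as a result about the markers. The cause of the changed counts and signs was not tested.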
